A study of Arabidopsis thaliana with 39 samples.

Results

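The stretch examined here is the first part of pCSA110, the plasmid whose T-DNA was used to make the SAIL collection of Arabidopsis thaliana insertion lines, from base 1 to the base before bar. Positions are those of the deposited plasmid sequence (7541 bp), on its plus strand. The stretch holds plasmid backbone at 1 to 244 bp, the left border repeat at 245 to 269 bp, and at 270 to 827 bp the sequence that contains the mannopine synthase (MAS) promoter, after which bar begins at 828 bp. A small RNA read belonged to it when its midpoint lay there and every base equalled the plasmid, which held for 674 of the 2851 such reads on pCSA110. The 674 reads fell to 40 on the backbone, 10 on the left border repeat, 508 on the border side of the MAS stretch (270 to 500 bp) and 116 on its bar side (501 to 827 bp). Of the 34770 RNA-seq pieces listed on pCSA110, 3403 started in the stretch.

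Both libraries came from whole rosette leaves of SAIL_232, pooled over plants of a segregating seed stock, with 1 small RNA library and 1 RNA-seq library. SAIL_232 carries the pCSA110 T-DNA, in which bar and GUS are the coding genes. For the bases that pCSA110 shares with pROK2, the T-DNA plasmid of the SALK lines, the 1 small RNA library of whole rosette leaves of SALK_059379 is given beside it. Neither line received a treatment that the labels name. The tables hold only reads placed on the plasmids, so the leaf label could not be checked against marker genes, library totals are not known here, and a read cannot be assigned to one copy or insertion of the T-DNA. Each line had a single library of each kind, so samples were not tested against each other. Intervals are 95% exact intervals (Poisson for counts, Clopper-Pearson for shares) and cover counting error only, and reads amplified by PCR are not independent molecules.

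T-DNA is the segment that Agrobacterium transfers into plant cells, and its ends are marked by short direct repeats, the left and the right border. In the Ti plasmid from which it was taken, the MAS promoter lies between genes that are read in opposite directions, and it is active in both. Plants turn double-stranded RNA into small interfering RNAs with Dicer-like enzymes. DCL4 makes the 21 nt class and DCL2 the 22 nt class, which act mainly on transcripts, and DCL3 makes the 24 nt class, which guides DNA methylation. RNA-dependent RNA polymerases such as RDR6 make the second strand where a transcript has only one. bar encodes phosphinothricin acetyltransferase, which confers resistance to the herbicide glufosinate.

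Small RNAs were dense directly inside the left border, sparse over most of the rest of the MAS stretch and dense again in its last 27 bp, where all 57 reads ran into bar. The border side held 2199 reads per kb (2012 to 2399) and the bar side 355 (293 to 425), at nearly the same base composition (39.0% and 39.8% G and C). With all copies counted, the border side was as densely covered as bar itself, at 2225 reads per kb (2102 to 2353), whose bases are 68.3% G and C. With identical reads counted once, the border side was less dense than bar, at 723 against 1337 per kb. For 21 nt reads the border side stood above every other element of the plasmid, with 1420 reads per kb (1270 to 1582) against 45.9 (25.7 to 75.7) on the bar side, 433 (380 to 491) on bar and 31.6 (26.1 to 37.8) between bar and GUS. GUS and the sequence between GUS and the right border held 1.10 (0.134 to 3.99) and 27.5 (14.2 to 48.0) reads of 21 nt per kb. The border side thus held 328 of the 721 reads of 21 nt on the whole plasmid (45.5%, 41.8 to 49.2) on 231 bp of sequence.

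Within the MAS stretch the 21 nt reads were divided more unequally than the other lengths. The border side held 328 of 343 reads of 21 nt (95.6%, 92.9 to 97.5), 49 of 62 reads of 24 nt (79.0%, 66.8 to 88.3) and 45 of 70 reads of 22 nt (64.3%, 51.9 to 75.4). Of the reads of 30 to 47 nt it held 34 of 70 (48.6%, 36.4 to 60.8). The interval for 21 nt lay above each of the other 3 when all copies were counted. With identical reads counted once, the border side held 63 of 74 at 21 nt and 23 of 31 at 24 nt. At 22 nt it then held 18 of 33, and at 30 to 47 nt 25 of 53. The order of the lengths stayed, but 21 and 24 nt came closer, and no intervals were made for these counts.

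In 25 bp bins, most reads formed one block. The 4 bins from 276 to 375 bp held 66, 132, 155 and 126 reads, in all 479 of the 674 (71.1%), and 318 of the 349 reads of 21 nt (91.1%). The bin that holds most of the left border repeat and the first T-DNA bases, 251 to 275 bp, held 17 reads, and the bin before it, 226 to 250 bp, held none. Past 375 bp the counts dropped to 7 and 8 reads in the next bins, and the rest of the border side held 22 reads in all. The block is 100 bp long and held all but 29 of the border-side reads.

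**Figure D1:**
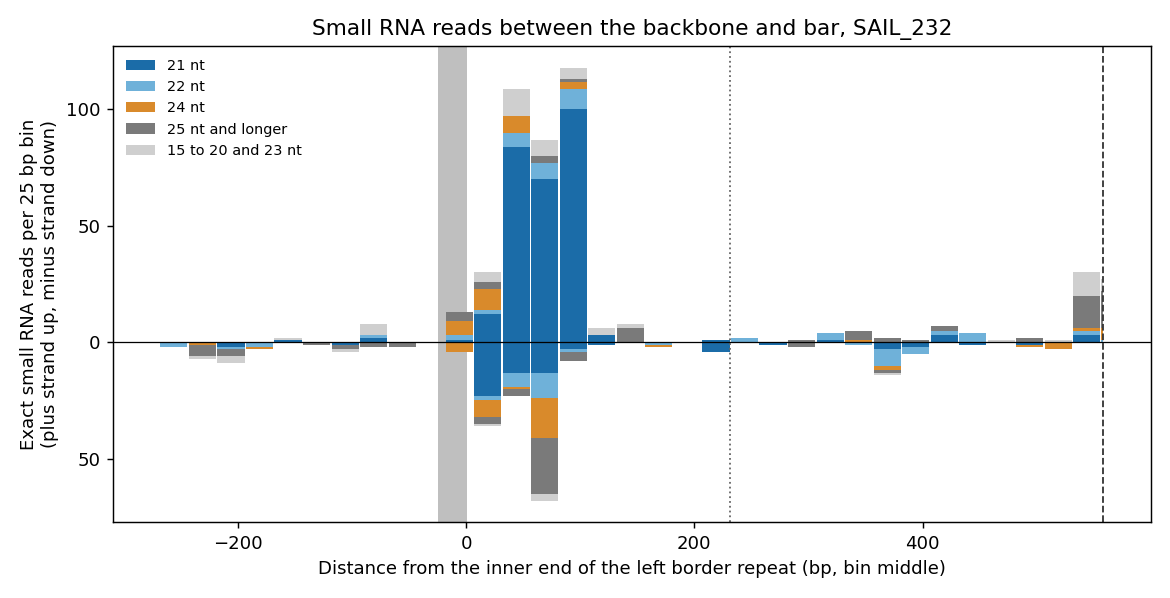
Exact small RNA reads of SAIL_232 per 25 bp bin (vertical axis, plus strand up and minus strand down, coloured by length) against the distance from the inner end of the left border repeat, which is position 269 bp of pCSA110. The grey band is the left border repeat, the dotted line the boundary at 500 bp and the dashed line the start of bar. The 4 tall bins hold 479 of the 674 reads, and the small rise at the right edge is made of plus-strand reads that run into bar.

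The block was asymmetric between strands. On the border side, 271 reads of 21 nt lay on the plus strand and 57 on the minus strand (82.6% plus, 78.1 to 86.6). The 22 nt reads were nearly even, with 24 plus and 21 minus (53.3% plus, 37.9 to 68.3). Of the 24 nt reads, 19 were plus and 30 minus (38.8% plus, 25.2 to 53.8), so the interval for 24 nt lay wholly below that for 21 nt. On the bar side, 7 reads of 21 nt were plus and 8 minus, which is 46.7% plus (21.3 to 73.4).

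Part of that asymmetry came from a few reads that were present in many copies. When identical reads, equal in start, end and strand, were counted as 1, the border side held 42 plus and 21 minus reads of 21 nt (66.7% plus, 53.7 to 78.0). Each distinct read was found 3.04 times on average on the border side, 1.43 times on the bar side and 1.66 times on bar. The 10 most frequent 5′ ends, all on the border side, held 238 of the 674 reads (35.3%), although the reads had 208 different 5′ ends.

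The most frequent read of the whole stretch was the 21 nt read at 312 to 332 bp on the plus strand, found 64 times and beginning with U. It was followed by the plus-strand 21 nt reads at 355 to 375 bp (43 reads, U), 333 to 353 bp (28 reads, G) and 354 to 374 bp (20 reads, A). The plus-strand reads at 336 to 356 bp and 319 to 339 bp were found 16 and 15 times. These 6 reads carry 28.6% to 38.1% G and C. On the minus strand no single read reached those counts, and the leading read of 21 nt, at 275 to 295 bp, was found 13 times.

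Longer reads on the minus strand had their own leading place. The most frequent 24 nt read lay at 319 to 342 bp on the minus strand, with 14 of the 30 minus-strand reads of that length. The most frequent minus-strand 22 nt read lay at 319 to 340 bp (8 of 21 reads), so that both ended on the same plasmid base, 319, where the plus-strand 21 nt read of 319 to 339 bp begins. The most frequent plus-strand 22 nt read, at 300 to 321 bp, was found 6 times, and the most frequent plus-strand 24 nt read, at 286 to 309 bp, 5 times, tied with 1 other.

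The leading plus-strand 21 nt reads stood end to end. The 5′ ends at 312, 333 and 354 bp lie 21 bases apart, so that the reads at 312 to 332, 333 to 353 and 354 to 374 bp follow each other without a gap. With 1 read at 291 bp they made up 113 of the 271 plus-strand 21 nt reads of the border side (41.7%), where an even spread over the 21 registers would give 4.76%. The read at 355 bp, with 43 copies, was 1 base out of that register. When identical reads were counted once, the fullest register, which was another one, held 4 of 42 (9.52%), so the register of the reads was that of 3 abundant 5′ ends. On the minus strand the fullest register held 16 of 57 reads (28.1%), at 3 ends.

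Reads of the border side began mostly with U. Of the 21 nt reads 193 of 328 began with U (58.8%), against 35.2% U among their other bases, and of the 22 nt reads 40 of 45 did (88.9%, against 34.1%). Among the 24 nt reads A was the most common first base (25 of 49, 51.0%, against 28.6% among the other bases), and 14 of these were the read at 319 to 342 bp. Counted once each, the distinct reads began with U in 27 of 63 cases at 21 nt (42.9%) and 14 of 18 cases at 22 nt (77.8%), and with A in 8 of 23 cases at 24 nt (34.8%). The first base is known to steer the sorting of small RNAs among Argonaute proteins, where AGO1 favours U and AGO4 favours A.

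Dicer products leave a duplex in which each strand overhangs the other by 2 bases at its 3′ end. At that spacing 10 pairs of 5′ ends were found among the 21 nt reads, which held 55 of the 349 reads (15.8%). Across 17 neighbouring spacings the number of pairs was 3 to 11 with a median of 6, and the share of reads was 2.29% to 43.3% with a median of 15.8%. The duplex spacing therefore did not stand out from the others at 21 nt. At 22 nt it had 3 pairs and 23 of 78 reads (29.5%, 19.7 to 40.9), against 0 to 2 pairs and at most 19.2% of reads at the other spacings. At 24 nt it had 2 pairs, against 0 to 5.

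**Figure D2:**
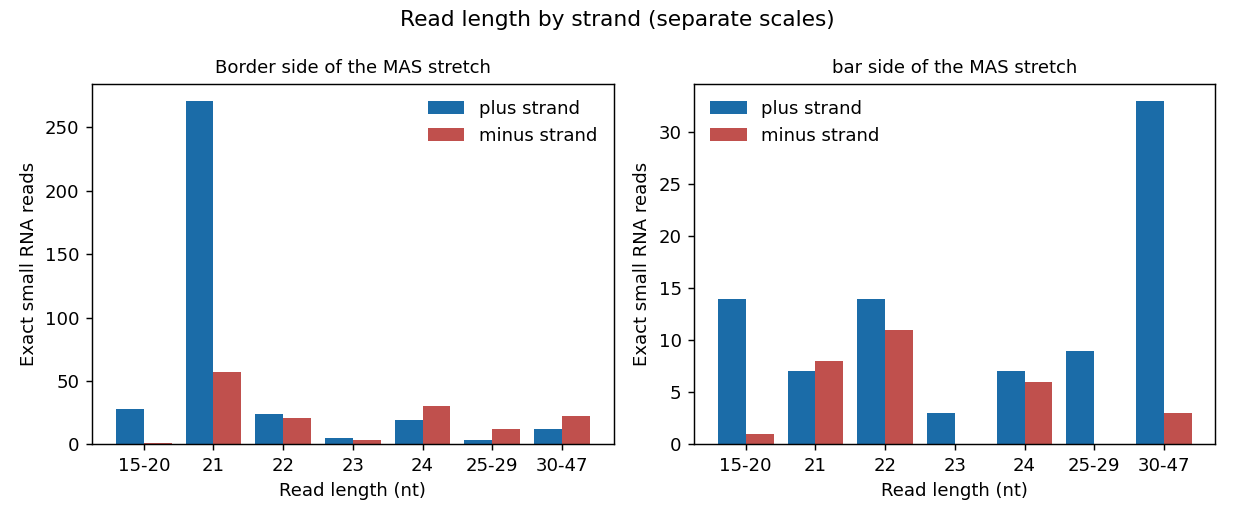
Exact small RNA reads of SAIL_232 (vertical axis, separate scales) by read length in nt (horizontal axis) and strand, on the border side (270 to 500 bp, left) and the bar side (501 to 827 bp, right) of the MAS stretch. The 271 plus-strand reads of 21 nt dominate the border side, and the 33 plus-strand reads of 30 to 47 nt are the largest class of the bar side.

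The bar side had another make-up. Reads of 30 to 47 nt, longer than the Dicer-like classes, were 36 of its 116 reads (31.0%, 22.8 to 40.3), against 34 of 508 on the border side (6.69%, 4.68 to 9.23). In bar their share was 32.3% (29.7 to 35.0). The small RNA fraction was cut from a gel before sequencing, so the gel sets which long reads could be seen at all. Among the reads of 21 to 24 nt, 21 and 22 nt together made up 373 of 430 on the border side (86.7%, 83.2 to 89.8) and 40 of 56 on the bar side (71.4%, 57.8 to 82.7). With identical reads counted once these shares were 74.3% and 72.2%, so the difference rested on copies of the same reads, whereas the shares of 30 to 47 nt then were 15.0% on the border side and 34.6% on the bar side. The plus strand had 74.2% (69.8 to 78.3) of the reads of 21 to 24 nt on the border side and 55.4% (41.5 to 68.7) on the bar side, but with identical reads counted once 60.6% (50.7 to 69.8) and 63.9% (46.2 to 79.2), which turns the order of the sides round.

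Long reads changed strand between the sides. On the border side 15 of the 49 reads of 25 nt and longer were plus (30.6%, 18.3 to 45.4), and on the bar side 42 of 45 were (93.3%, 81.7 to 98.6). Of the 45, 30 lay at 801 to 827 bp and ran into bar, all plus. At 501 to 800 bp 12 of 15 were plus (80.0%, 51.9 to 95.7). On the backbone all 15 such reads were minus, whereas in bar 602 of 617 were plus (97.6%), which is the coding strand of bar. On the border side the minus-strand long reads sat in the same place as the block of 21 nt reads, with 24 of them in the bin from 326 to 350 bp.

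**Figure D3:**
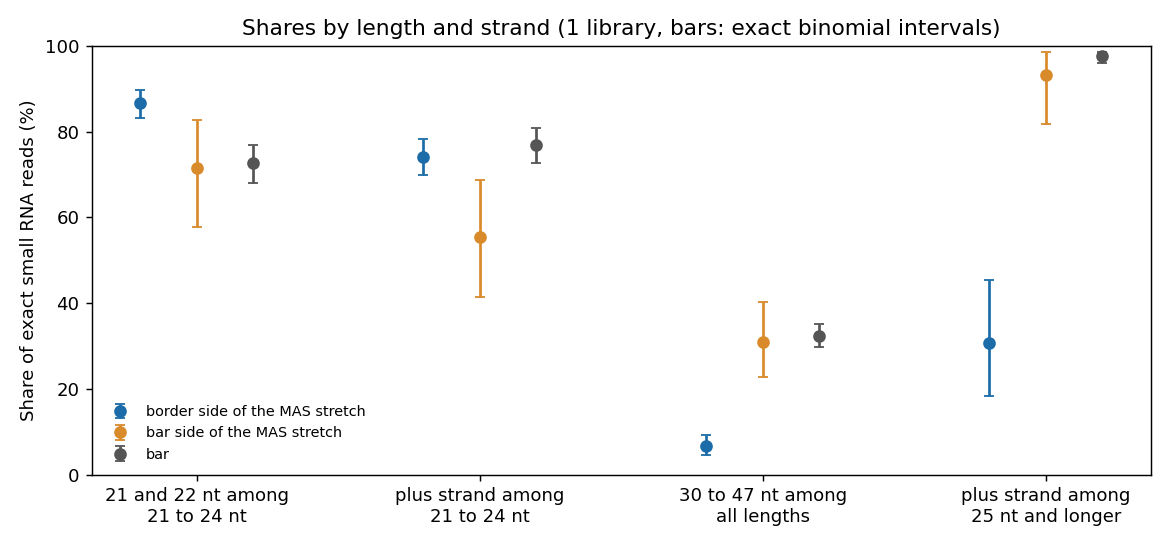
Shares of the exact small RNA reads of SAIL_232 in % (vertical axis) for 4 classes of length and strand, on the border side, the bar side and bar. Points are shares in 1 library and bars their 95% exact binomial intervals. The border side differs most from the others in the share of reads of 30 to 47 nt (6.69% against 31.0% on the bar side) and in the strand of reads of 25 nt and longer (30.6% plus against 93.3%). Of the 45 bar-side reads of 25 nt and longer, 30 run into bar.

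Many of the bar-side reads belonged to the edge of bar. The last 27 bp before bar (801 to 827 bp) held 57 of the 116 bar-side reads, all on the plus strand and all running over the first base of bar. Of these, 30 were 25 nt or longer. In the remaining 300 bp, a split at 800 bp that was chosen after the reads were seen, 59 reads were found, 197 per kb, of which 30 were plus and 29 minus. There the 21 and 22 nt reads were 34 of 41 reads of 21 to 24 nt (82.9%, 67.9 to 92.8), with an interval that holds the share of the border side, and the plus strand had 16 of the 41 (39.0%, 24.2 to 55.5).

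The only other concentration on the bar side was a small one on the minus strand. Between 607 and 664 bp it held 20 minus-strand reads of 10 kinds, 11 of them 22 nt long, and 2 plus-strand reads. Its leading read, of 22 nt at 621 to 642 bp, was found 7 times and was the most frequent minus-strand read of the bar side. The leading 21 nt reads of the bar side were found 3 times (plus, 815 to 835 bp, partly in bar) and 2 times (minus, 622 to 642 bp, tied with 1 other). The leading 24 nt reads, at 816 to 839 bp on the plus strand and 769 to 792 bp on the minus strand, were found 3 times each.

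The left border repeat was crossed on its inner side only. Its 10 reads, 2 of 22 nt, 6 of 24 nt and 2 of at least 30 nt, were all on the plus strand, and the most frequent of them, of 24 nt at 257 to 280 bp, was found 4 times. No read of 21 nt had its midpoint in the repeat, and a count of 0 allows up to 3 as a one-sided limit. Over its inner end, between 269 and 270 bp, ran 21 reads, 17 plus and 4 minus. Over its outer end, between 244 and 245 bp, ran 0 reads, which again allows up to 3. Over the start of bar, by comparison, ran 141 reads, 139 of them plus, of which 95 were 25 nt or longer.

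The 40 backbone reads were spread over 1 to 225 bp at 164 per kb (117 to 223). They were mostly on the minus strand (30 of 40), and of the reads of 21 to 24 nt 14 of 19 were. No length class led: 6 reads were 21 nt, 6 were 22 nt, 5 were 23 nt and 2 were 24 nt, and the most frequent reads of 21 and 22 nt on the minus strand were found 2 times each. The 3 backbone reads beyond the right border gave 25.6 per kb (5.29 to 74.9).

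RNA-seq showed transcripts on both sides of the MAS stretch, on opposite strands. By listed start, 222 of the 223 pieces on the backbone and 96 of the 99 on the left border repeat were on the plus strand. On the border side 59 of 79 were (74.7%, 63.6 to 83.8), and on the bar side 105 of 3002 (3.50%, 2.87 to 4.22). The border-side share depended on how reads were counted: of the pieces joined into reads, 20 of 25 with their midpoint there were plus (80.0%), but only 3 of the 20 that started there (15.0%, 3.21 to 37.9), since most plus-strand reads over it started before it. In bar 355 of 26124 pieces were plus (1.36%). No source says whether the strand column names the strand of the RNA or of its copy. RNA-seq strands are therefore compared with each other only. bar is encoded on the plus strand. If its pieces come from bar mRNA, a listed minus stands for plus-strand RNA. The backbone and left border pieces would then be minus-strand RNA. This was not tested. The RNA-seq strand of the backbone and left border repeat is the one opposite to that of the bar reads. Long small RNA reads showed the same contrast with the strand names exchanged, minus on the backbone and plus in bar.

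The table lists reads in pieces, and joining took at most 6 pieces per read. Laid without a gap from their first listed start, 548 of 771 joined reads of the stretch differed from the plasmid in at most 10% of bases. In the 499 of these with several pieces, the last piece was always listed further right, by a median of 15 bases and at most 21. Joining allowed no shift to the left, and these reads were kept for fitting without a gap. The shift is therefore no check of the placement. All joined reads were placed by their first start and their number of bases. A start is the lowest plasmid position of a read and names no direction of transcription. Reads that differed from the plasmid in at most 10% of bases were used for the profile. These were 83 of the 89 reads that started on the backbone, 9 of 11 on the left border repeat, 18 of 20 on the border side and 438 of 651 on the bar side. Towards bar the joined reads were short. Of the 651 bar-side reads 510 reached the limit of 6 pieces. The median length on the bar side was 20 bases, against 128.5 on the border side and 129 on the backbone. Whether the listing or the limit made them short cannot be told here. Read counts, starts and depth near bar are therefore uncertain, and depth there may be too low by an unknown amount.

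Plus-strand reads covered the plasmid without a break from base 1 to 395 bp. Their mean depth per bin was 49.2 at 176 to 200 bp on the backbone, 35.6 at 251 to 275 bp over the left border, 36.3, 24.6, 15.6 and 9.28 in the 4 bins of the small RNA block and 3.04 at 376 to 400 bp. The reads that reached furthest in this unbroken run, 2 in number, both ran from 266 bp, in the left border repeat, to 395 bp. Both held 130 bases, the most that joining allowed, so 395 bp need not be the end of a transcript. The next 86 bases had no plus-strand read, and from 482 bp on the mean plus-strand depth per bin stayed at 11.8 or below.

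Minus-strand depth went the other way. In the block of small RNAs it was 1.00 to 2.28 per bin, given by 3 reads at 244 to 373, 306 to 435 and 367 to 376 bp. The next minus-strand read started at 403 bp, and depth was 10.4 at 476 to 500 bp, 38.7 at 601 to 625 bp, 126 at 726 to 750 bp and 165 at 776 to 800 bp. The leading start of joined minus-strand reads before the bar side was 481 bp, with 4 of 18 reads, and on the bar side it was 789 bp, 39 bases before bar, with 41 of 628.

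**Figure D4:**
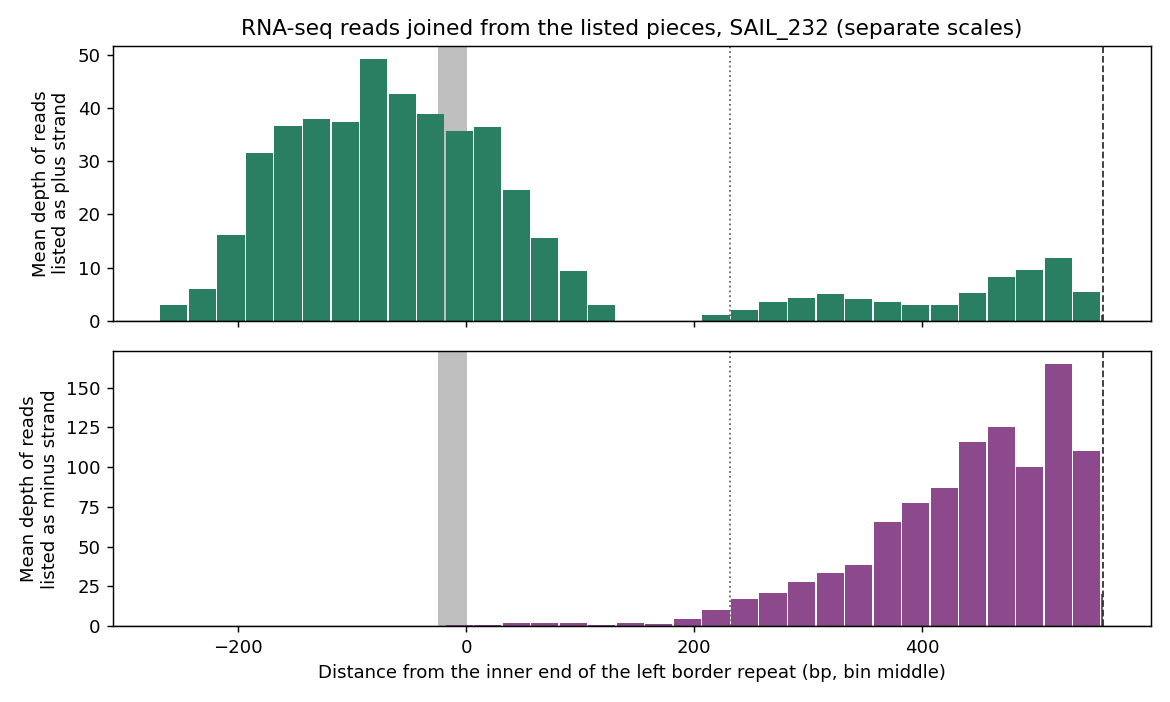
Mean depth of RNA-seq reads of SAIL_232 per 25 bp bin (vertical axes, separate scales), for reads listed as plus strand (top) and minus strand (bottom), against the distance from the inner end of the left border repeat at 269 bp. The grey band is the left border repeat, the dotted line the boundary at 500 bp and the dashed line the start of bar. Plus-strand depth runs unbroken through the border repeat to 395 bp and resumes at 482 bp at 11.8 or below. Minus-strand depth climbs to 165 just before bar, where joined reads are short and depth is uncertain.

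Transcripts ran through the left border repeat. Of the placed reads 31 held the whole repeat with bases on both sides, 30 of them plus, and in 28 of the 31 all 25 bases of the repeat were intact. They had 22 different starts, the earliest at 175 bp with a median of 186 bp. The furthest of the plus-strand reads reached 371 bp, and the minus-strand read 373 bp, which is 104 bases into the T-DNA. These ends too are bounded by the limit of 130 bases for a joined read. By contrast no small RNA read joined the backbone to the repeat. Over the boundary at 500 bp ran 16 placed reads, 2 plus and 14 minus.

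The small RNA block lay where the border-side transcripts were found. From 270 to 395 bp, the part of the MAS stretch with unbroken plus-strand RNA-seq reads, there were 323 reads of 21 nt (2563 per kb, 2292 to 2859). From 403 bp to bar, where 430 minus-strand and 24 plus-strand reads started, there were 20 (47.1 per kb, 28.7 to 72.7). On the backbone and the border repeat, where 91 plus-strand reads and 1 minus-strand read started, there were 6 (22.3 per kb, 8.19 to 48.5). So along the reads listed as plus strand, 21 nt reads were few on the backbone and border repeat and many on the 126 covered bases of the MAS stretch. Reads of 25 nt and longer were 9 plus and 34 minus up to 395 bp and 46 plus and 3 minus from 403 bp.

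The bases from 7 to 322 bp, which hold most of the backbone part, the left border repeat and the first T-DNA bases, are identical in pROK2 (316 bases). In SAIL_232 168 reads lay wholly in them and could not be assigned to one plasmid by sequence, while 506 of the 674 reads (75.1%) reached past 322 bp and matched pCSA110. Counts of the libraries are not scaled to each other, and in whole leaves fewer cells that make a small RNA and less of it per cell cannot be told apart. Of the reads wholly inside the shared bases, SAIL_232 had 118 with their midpoint on the T-DNA part (270 to 322 bp), of which 60 were 21 nt and 21 were 24 nt, and SALK_059379 had 68, of which 8 were 21 nt and 26 were 24 nt. On the shared backbone SAIL_232 had 40 reads, of which 6 were 21 nt and 2 were 24 nt. SALK_059379 had 123 there, of which 26 were 21 nt and 49 were 24 nt. On the left border repeat they had 10 and 11, all plus.

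The make-up of the reads on the same bases differed between the libraries. Among reads of 21 to 24 nt wholly inside the shared bases, 21 nt made up 66 of 126 in SAIL_232 (52.4%, 43.3 to 61.3) and 34 of 176 in SALK_059379 (19.3%, 13.8 to 25.9). The 24 nt class made up 29 of 126 in SAIL_232 (16.0 to 31.4%) and 80 of 176 in SALK_059379 (45.5%, 37.9 to 53.1). These shares pool the backbone and the T-DNA part, over which the libraries were spread differently. Of the 66 reads of 21 nt in SAIL_232, 60 lay on the T-DNA part. On the backbone 21 nt made up 6 of 40 reads of all lengths in SAIL_232 and 26 of 123 in SALK_059379. These are not shares of the reads of 21 to 24 nt. On that base the SAIL_232 backbone had 6 of 19 (31.6%, 12.6 to 56.6), and the SALK_059379 backbone was not counted. Which library had the larger 21 nt share on the backbone is therefore not settled here. Over all the shared bases each library had 94 distinct reads, of which 20 were found in both (21.3% of each). The leading read of each library was rare or missing in the other: the minus-strand 21 nt read at 275 to 295 bp had 13 copies in SAIL_232 and 0 in SALK_059379, and the minus-strand 24 nt read at 88 to 111 bp had 1 copy in SAIL_232 and 24 in SALK_059379. With 1 library per line, this compares the libraries and not the lines.

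None of the 674 reads occurred at a second place of pCSA110, on either strand, and none matched the Arabidopsis reference genome (TAIR10.1) exactly.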

How the data were processed

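The authors size-selected small RNA on a gel, sequenced it on separate lanes as technical duplicates, and aligned the trimmed reads to the plasmids with Bowtie2 and Geneious, per the methods without mismatches or gaps. The SAIL_232 RNA-seq library was prepared by hand and sequenced paired-end, so mates that overlap may each be listed. The submitters' processing notes name Bowtie2 2.3.0, Bowtie 0.12.7 and FastQC. Which aligner made which table, and the RNA-seq strand convention, are not stated in the sources read. The deposited tables list reads or pieces with strand, start, end and bases, with no normalization, and no count column. All counts were made here by counting entries, with Python 3.11.15, pandas 2.3.3 and scipy 1.17.1.

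Small RNA reads with any difference from the plasmid were left out. Reads of both strands are written in plus-strand orientation, and minus-strand reads were turned before 5′ bases were read. Consecutive RNA-seq pieces of 1 strand were joined into a read where gaps did not exceed 16 bases (at most 6 pieces and 130 bases). Joining and pair counting were tested on simulated reads without base errors and of fewer than 6 pieces, so joining at that limit was not tried. The end of bar was read from its open reading frame, GUS as the longest later frame, and the right border as the best match to the left border repeat (21 of 25 bases). The boundary at 500 bp, the size classes and the reads to be named were chosen with earlier results of these data known. Named were the most frequent reads of 21, 22 and 24 nt per part and strand, the 10 most frequent 5′ ends, and the reads over the ends of the border repeat or the start of bar. The pROK2 RNA-seq table and all other samples were not used.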

Additional observations from a re-analysis of the deposited data

Results flagged for a closer look

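In the stretch from 1 to 827 bp, 58 small RNA reads differed from the plasmid and were left out of all counts above. They were 3 on the backbone, 2 on the left border repeat, 42 on the border side and 11 on the bar side. In 47 of them 1 base differed. The difference was the last base alone in 27 reads, lay otherwise within the last 2 bases in 12, and was the first base alone in 4. They were set apart here because they enter none of the main comparisons.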

How the results depend on the processing

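Of 82 alternative values, 47 kept within the counting interval (for counts, within 1.5 times) and 35 did not. With identical reads counted once, the border side held 167 reads and the left border repeat 5, while the border-side shares became 74.3% for 21 and 22 nt, 60.6% for the plus strand of 21 to 24 nt and 15.0% for 30 to 47 nt. The difference between the sides in the share of 21 and 22 nt is lost by this (72.2% on the bar side), and that in the plus-strand share is turned round (63.9% on the bar side). The share of 21 nt reads with a duplex partner became 25.3%. Counting every read that overlaps gave 21 reads on the left border repeat and 201 on the bar side, and counting reads wholly inside gave 0 and 59. RNA-seq pieces joined into reads and counted by listed midpoint gave 59 reads on the backbone, 21 on the left border repeat, 25 on the border side and 592 on the bar side. Joined reads of at least 30 bases gave 56, 21, 23 and 245, and joined reads placed by their first start, an alternative chosen after seeing the data, gave 65, 15, 25 and 624. Joined reads counted by their first start, also chosen after seeing the data, gave 89, 11, 20 and 651. Fewer units are counted when pieces are joined. The plus share became 100% on the left border repeat under all 4 of these and on the backbone under the 3 by midpoint, and 6.53% on the bar side with reads of at least 30 bases. On the border side it became 15.0% by first start, below the 50% line, since most plus-strand reads there start before it.

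Moving the boundary to 450 or 550 bp, removing the most frequent 5′ end of each part and strand, and including reads with mismatches each left the shares they were tried on within their intervals. No paired analysis was possible because each line and assay has 1 library and no result comes from a test. With 56 bar-side reads of 21 to 24 nt, shares there are known only to within about the widths of the intervals given.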

Other observations

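Of the 345 joined RNA-seq reads of at least 30 bases that started in the stretch, 25 differed from the plasmid in more than 10% of bases at their listed place, 7 of them listed at or before 500 bp. One of these, listed at 264 bp on the plus strand with 101 bases, matched the plasmid at its ends in separate places. Its first 20 bases equal 7384 to 7403 bp, the last bases of the T-DNA before the right border repeat and the first ones of that repeat, which begins at 7400 bp. Its last 86 bases equal 273 to 358 bp, inside the left border, and the matches overlap by a few bases of the read. Another, listed at 257 bp, equals the plasmid in all of its 86 bases at 272 to 357 bp. Each was seen in 1 read only.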
